A study of Rattus norvegicus with 22 samples.

Results

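Hepatocytes turn cholesterol into bile acids, join them to glycine or taurine, pump them into bile together with phospholipid, and take them up again from portal blood. The account covers 6 genes of this circuit in the liver of male rats whose mothers ate an obesogenic diet. They are Cyp8b1, Acox2, Slc27a5, Slc10a1, Slco1b2 and Abcb4, picked by symbol from the male table of the study. They hold 7 of its 1365 rows, since Slco1b2 is listed with 2 transcripts.

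The study sequenced liver RNA of 22 Wistar rats at postnatal day 110. The groups used here were 5 male offspring of mothers on an obesogenic diet (MO males) and 6 male offspring of mothers on a control diet (control males), 1 library per animal. The diet that differed was the mother's. The sources used here do not give what the offspring themselves ate, their feeding state and hour at death, or their litters. Animals of 1 litter would not be independent, so each p-value reflects no more than the spread among the animals sampled. Another 5 MO and 6 control females have a table of their own, with 69 rows, which held 0 of the 6 genes and 0 genes of the lists used below, so females were not analysed here.

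In the classical route, cholesterol is first hydroxylated by Cyp7a1. Cyp8b1, the sterol 12-alpha-hydroxylase, then decides how much of the product becomes cholic acid rather than chenodeoxycholic acid and its rodent derivatives. The side chain is shortened in peroxisomes, where Acox2, a branched-chain acyl-CoA oxidase, takes the first oxidation step and the thiolase of Scp2 the last. Slc27a5 is the bile acid-CoA ligase that reactivates returning bile acids before they are conjugated. On the blood side of the hepatocyte Slc10a1 (Ntcp) takes up conjugated bile acids with sodium, and Slco1b2 takes up bile acids and bilirubin without it. On the bile side Abcb4 (Mdr2) flips phosphatidylcholine into bile, which protects the ducts from bile acids.

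The RefSeq sequences around the annotated starts of the members (GRCr8, 250 bases before to 50 after) are shown for 4 of them. All 6 were matched by symbol. Cyp8b1 had the lowest log2 fold change of the 6, Acox2 was the one that passed the test on both scales used below, and the uptake carriers Slc10a1 and Slco1b2 form a pair. Capitals mark matches to any of 5 motifs, each searched on both strands.
Cyp8b1, chr8:130457543-130457842, minus strand: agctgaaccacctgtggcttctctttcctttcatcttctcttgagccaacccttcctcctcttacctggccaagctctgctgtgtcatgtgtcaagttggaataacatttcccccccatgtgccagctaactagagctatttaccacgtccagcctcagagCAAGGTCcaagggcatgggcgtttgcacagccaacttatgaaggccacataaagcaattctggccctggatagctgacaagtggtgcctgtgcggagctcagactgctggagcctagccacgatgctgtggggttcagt
Acox2, chr15:19090705-19091004, plus strand: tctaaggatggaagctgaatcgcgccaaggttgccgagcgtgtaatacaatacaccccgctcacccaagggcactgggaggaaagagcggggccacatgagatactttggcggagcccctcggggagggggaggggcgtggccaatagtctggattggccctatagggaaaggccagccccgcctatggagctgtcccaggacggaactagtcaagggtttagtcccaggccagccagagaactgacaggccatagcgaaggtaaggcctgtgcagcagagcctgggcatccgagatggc
Slc10a1, chr6:106357895-106358194, minus strand: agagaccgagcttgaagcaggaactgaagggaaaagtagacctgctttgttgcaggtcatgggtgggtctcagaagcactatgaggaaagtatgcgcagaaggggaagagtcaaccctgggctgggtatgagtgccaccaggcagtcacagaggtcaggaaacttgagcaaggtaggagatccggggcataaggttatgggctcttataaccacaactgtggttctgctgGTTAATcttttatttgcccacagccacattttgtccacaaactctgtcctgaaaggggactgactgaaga
Slco1b2, chr4:176282334-176282633, plus strand: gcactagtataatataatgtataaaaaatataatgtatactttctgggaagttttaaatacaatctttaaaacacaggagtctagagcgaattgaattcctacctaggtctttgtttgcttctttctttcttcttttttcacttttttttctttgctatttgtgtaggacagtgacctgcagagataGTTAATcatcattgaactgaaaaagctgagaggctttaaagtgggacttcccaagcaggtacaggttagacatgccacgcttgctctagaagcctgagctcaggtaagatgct

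The capitals in Cyp8b1 are CAAGGTC, the core of the site of the nuclear receptor NR5A2 (LRH-1), at positions -89 to -83 from the start. This motif stood in 4.2% of 33469 promoters of the same length and in 4.92% of the 1057 that belong to genes of the male table. The capitals in both uptake carriers are GTTAAT, a half-site of HNF1, at -20 to -15 in Slc10a1 and at -63 to -58 in Slco1b2. It stood in 7.45% of all promoters and in 5.11% of those of the male table. The other motifs were the E-box, DR1 and IR1. The E-box CACGTG stood in 6.42% of all promoters and in 9.18% of those of the male table. DR1, the direct repeat of AGGTCA with 1 base between that HNF4 and its relatives bind, stood in 0.0538% and 0%. IR1, its inverted repeat for the bile acid receptor FXR, stood in 0.0269% and 0%. The E-box, DR1 and IR1 had 0 exact matches in the 6 windows. The matches found did not overlap, and Acox2, Slc27a5 and Abcb4 had none of the 5 motifs. The motifs were chosen also after the promoters had been seen, so these matches and shares are a description and test nothing. The match is one of letters only, and binding was not measured.

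The values are RPM, reads scaled to the depth of each library, which are not scaled by transcript length, so levels are compared between animals and not between genes. Library depth, read from the smallest steps of the values, was about 10530000 to 11590000 reads in MO males and 7890000 to 11170000 reads in control males, and the lowest member value stood for about 246 reads. The male table lists rows that already differed, the largest p in the authors' deposited table being 0.04964, and 1317 of its rows were lower and 48 higher in MO males. The tests below therefore describe the size and spread of differences for which the rows had been listed. The library medians of the listed rows were lower by 0.58 on the log2 scale in MO males, so each change is also given after every library was centred on its median. Rmrp, an RNA without a poly(A) tail, set some libraries apart, with 1.71 to 3.11 RPM in MO males, against 1.20 and 1.52 RPM in control males 1 and 5 and 36.9 to 51.2 RPM in control males 2, 3, 4 and 6. The signal recognition particle RNA LOC102723236 divided the libraries in the same way. In whole liver, fewer cells of a type and less RNA per cell cannot be told apart.

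All 6 genes were lower in the MO males. Cyp8b1 was at 31.1% of its control level (95% interval 19.3% to 50.2%), Acox2 at 41.5% (30.8% to 55.8%) and Slco1b2 at 50.3% (35.7% to 70.9%). Abcb4 was at 57.4% (40.3% to 81.7%), Slc27a5 at 64.7% (48.5% to 86.4%) and Slc10a1 at 65.9% (48.6% to 89.3%). These intervals, and the SEs below, come from limma, which pools spread over rows listed for a difference, so they may be too narrow. An equal-variance model of each row alone gave larger p-values for all 6. Its unadjusted p was 0.0057 for Cyp8b1 and 0.03 for Slc10a1, where limma's unadjusted p was 4.5e-05 and 0.0094. Each of the 6 was below the control mean in 5 of 5 MO males, a count with no matching share over all rows. Each also passed limma's test with Benjamini-Hochberg adjustment over the 1365 rows. So did 96.5% of all listed rows in that direction, and an exact permutation test, adjusted in the same way, passed the 6 members and 94.7% of the rows as lower.

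**Figure D1:**
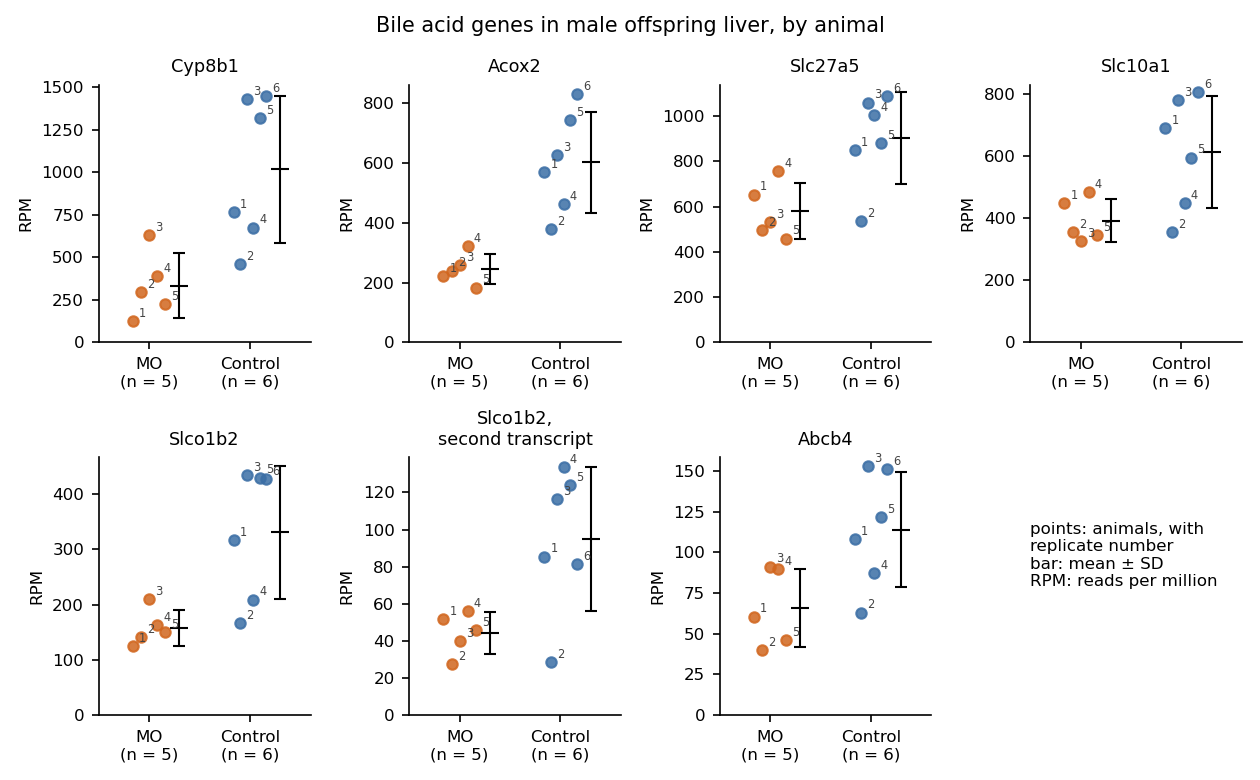
RPM (vertical axes, from 0) of the 6 genes, with the second Slco1b2 transcript in a panel of its own, in 5 MO males (left, orange) and 6 control males (right, blue). Points are animals with their replicate number, and bars are the mean and SD. Acox2 is the panel in which the groups do not overlap, and control 2 is the lowest control in all 7 panels.

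Of the synthesis genes, Cyp8b1 (chromosome 8 in the deposited table) had 126.3, 293.7, 630.1, 389.1 and 222.2 RPM in MO males 1 to 5, against 766.5, 461.2, 1432, 674.9, 1320 and 1448 RPM in control males 1 to 6. MO male 3 lay above control 2 and the other 4 MO males below every control. The controls themselves were divided, with 3 animals between 1320 and 1448 RPM and 3 between 461.2 and 766.5 RPM. The means were 332.3 ± 192 RPM in MO males (SD, n = 5) and 1017 ± 433 RPM in control males (SD, n = 6). The log2 fold change, the difference of the group means of log2(RPM + 1), was -1.68 ± 0.33 (SE), at a limma adjusted p of 0.0012 and an exact permutation p of 0.0087. With MO male 1 left out it was -1.39 and with MO male 3 left out -1.96.

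Acox2 (chromosome 15) had 220.9, 240.2, 257.8, 322.7 and 183.4 RPM in MO males 1 to 5, against 571.1, 380.2, 626.5, 463.7, 743.6 and 831 RPM in control males 1 to 6. Every MO male was below every control, as in 29.9% of all listed rows. Its log2 fold change was -1.27 ± 0.21 (SE), at a limma adjusted p of 0.00019 and an exact permutation p of 0.0043. The spread between animals was smaller than for Cyp8b1, with SDs of the log2 values of 0.30 for Acox2 and 0.87 for Cyp8b1 in MO males, and of 0.42 and 0.69 in control males.

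Slc27a5 (chromosome 1) had 652.8, 495.1, 531.2, 758.8 and 458.8 RPM in MO males 1 to 5, against 849.7, 534.3, 1060, 1006, 881.7 and 1087 RPM in control males 1 to 6. Control 2 lay among the MO males, and the other 5 controls were above all of them. The means were 579.4 ± 124 RPM in MO males (SD, n = 5) and 903.2 ± 204 RPM in control males (SD, n = 6), and the log2 fold change was -0.63 ± 0.20 (SE), at a limma adjusted p of 0.0098 and an exact permutation p of 0.024.

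Of the uptake carriers, Slc10a1 (chromosome 6) had 448.9, 356.6, 326, 484 and 346.6 RPM in MO males 1 to 5, against 691.5, 356.4, 781.2, 449.4, 595.5 and 807.3 RPM in control males 1 to 6. Controls 2 and 4 were within the MO range and the other 4 above it. The means were 392.4 ± 69.6 RPM in MO males (SD, n = 5) and 613.6 ± 182 RPM in control males (SD, n = 6). The log2 fold change was -0.60 ± 0.21 (SE), at a limma adjusted p of 0.012 and an exact permutation p of 0.039, the smallest change of the 6 genes.

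The main transcript of Slco1b2 (NM_031650, chromosome 4) had 124.9, 141.6, 209.6, 163 and 150.2 RPM in MO males 1 to 5, against 317.4, 166.5, 434.8, 209.1, 430.2 and 427.3 RPM in control males 1 to 6. As for Slc10a1, controls 2 and 4 reached down into the MO range. The log2 fold change was -0.99 ± 0.24 (SE), at a limma adjusted p of 0.0036 and an exact permutation p of 0.015. Of the 6 members 2 reached a decrease of 1 or more on the log2 scale, Cyp8b1 and Acox2, as did 5.2% of all listed rows, and Slco1b2 came close to it.

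A second Slco1b2 transcript (NM_001270586), listed without a chromosome, averaged 44.2 ± 11.1 RPM in MO males (SD, n = 5) and 94.8 ± 38.8 RPM in control males (SD, n = 6). Its log2 fold change of -0.97 ± 0.30 (SE), at a limma adjusted p of 0.0083, was close to that of the main one. It made up 22.1% ± 5.81 of the reads of both transcripts in MO males (SD, n = 5) and 22.4% ± 8.74 in control males (SD, n = 6), a difference smaller than the spread between animals (exact permutation p = 0.98). The highest share was 39% in control male 4, and the others ran from 14.5% to 29.3%. The sum of both transcripts was 202.1 ± 32.9 RPM in MO males (SD, n = 5) and 425.8 ± 141.3 RPM in control males (SD, n = 6). How reads that fit both transcripts were shared out is not given in the sources used here.

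Abcb4 (chromosome 4), the export gene, had 60.6, 40.2, 91.2, 89.7 and 46.2 RPM in MO males 1 to 5, against 108, 62.9, 152.8, 87.3, 121.5 and 151.4 RPM in control males 1 to 6. MO males 3 and 4 were above controls 2 and 4, and the other 3 MO males below every control. The log2 fold change was -0.80 ± 0.25 (SE), at a limma adjusted p of 0.0086 and an exact permutation p of 0.037. Abcb4 has close relatives, the Abcb1 drug pumps, and how reads shared with them were counted is not given in the sources used here.

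Among the listed rows, Cyp8b1 was at place 10 by size of decrease, Acox2 at place 37 and Slco1b2 at place 77. Abcb4 was at place 189, Slc27a5 at 486 and Slc10a1 at 585. The median log2 fold change of the 6 genes was -0.90, beside -0.58 over all 1365 rows. Slc27a5 (-0.63) and Slc10a1 (-0.60) were a little below the median of the table, and Cyp8b1 and Acox2 were farthest below it of the 6. The smallest decrease in the table was 0.48 on the log2 scale, and no smaller change was listed.

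**Figure D2:**
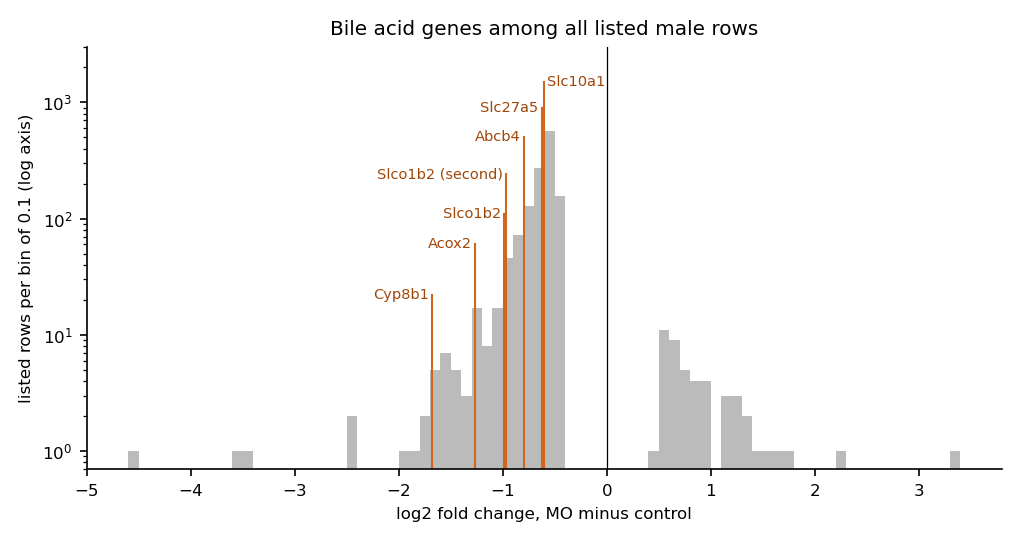
Histogram of the log2 fold changes (MO minus control males, horizontal axis) of the 1365 listed rows in bins of 0.1, on a logarithmic count axis, with the 7 rows of the bile acid genes as orange lines. Slc10a1 and Slc27a5 stand in the bulk of the lower rows, and Cyp8b1 and Acox2 in the left tail. The gap around 0 is empty because rows with small changes were not listed.

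After each library was centred on its median, the 6 genes separated. Acox2 passed at -0.69 ± 0.15 (SE), with a limma adjusted p of 0.011, with every MO male still below every control, as in 0.952% of all rows. That separation was by a narrow margin, with MO male 4 at 4.280 and control 2 at 4.281 on the centred log2 scale. Cyp8b1 was at -1.10 ± 0.35 (SE), at a limma adjusted p of 0.11, with 4 of 5 MO males below every control, and did not pass. Slco1b2 was at -0.41 (95% interval -0.86 to 0.05), Abcb4 at -0.22 (-0.63 to 0.20), Slc27a5 at -0.04 (-0.37 to 0.29) and Slc10a1 at -0.02 (-0.35 to 0.31), and none of these 4 passed. All 6 had a centred change below 0, as had 48.2% of all rows, and 1 of the 6 passed as lower, against 1.76% of the rows.

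**Figure D3:**
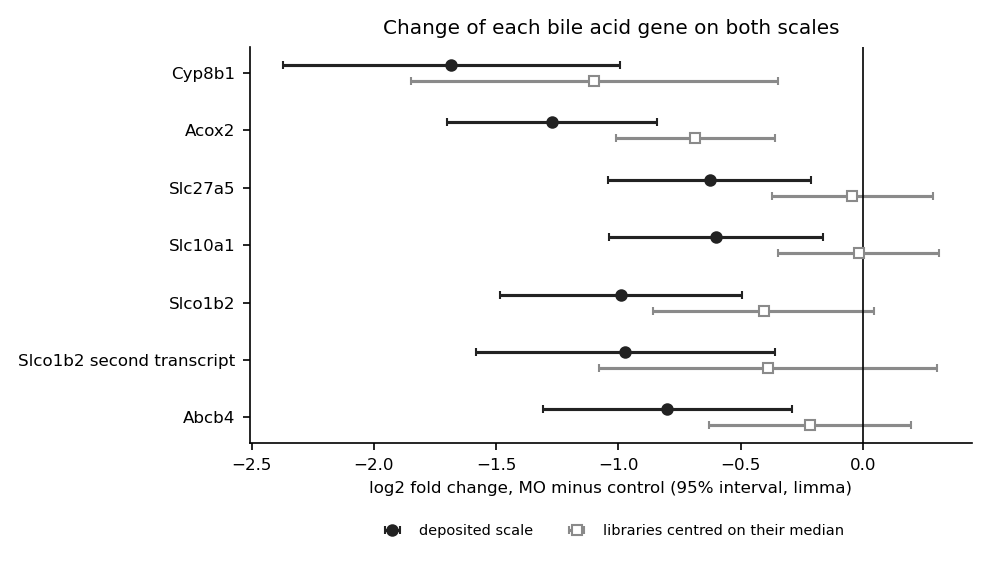
Log2 fold change (MO minus control males, horizontal axis) of the 7 rows with the 95% interval of the limma fit, on the deposited scale (filled circles) and after each library was centred on its median (open squares). On the deposited scale every interval lies below 0. After centring those of Cyp8b1 and Acox2 do, and Slc27a5 and Slc10a1 lie at -0.04 and -0.02.

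The changes were also compared between the genes themselves, by the ratio of 2 of them within each library, which, apart from the added 1, does not depend on how the library was scaled. All 15 pairs were tested with a two-sided exact permutation test over the 11 animals, adjusted over the 15, and 4 passed. No matching share over pairs of all listed rows was computed, for this count or for groups that did not overlap. In each of the 4, Acox2 or Cyp8b1 was lower relative to a partner. The log2 ratio of Acox2 to Slc10a1 was -0.69 ± 0.28 in MO males (SD, n = 5) and -0.02 ± 0.24 in control males (SD, n = 6), with 5 of 5 MO males below every control (difference -0.67, 95% interval -1.02 to -0.32; exact permutation p = 0.0022, the smallest possible, adjusted p = 0.032). That of Acox2 to Slc27a5 differed by -0.64 (-1.02 to -0.27; exact permutation adjusted p = 0.043). That of Cyp8b1 to Abcb4 differed by -0.88 (-1.59 to -0.18; exact permutation adjusted p = 0.032) and that of Cyp8b1 to Slco1b2 by -0.69 (-1.29 to -0.10; exact permutation adjusted p = 0.049).

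Cyp8b1 to Acox2 differed by -0.41 (-1.17 to 0.34; exact permutation adjusted p = 0.35) and did not pass with all 11 animals. This value moved with single MO males: it was -0.67 without MO male 3, where it passed (exact permutation adjusted p = 0.032), and -0.15 without MO male 1 (exact permutation adjusted p = 0.64). Slc27a5 to Slc10a1 differed by -0.03, with an interval of -0.36 to 0.30 (exact permutation adjusted p = 0.92). The 4 ratios kept their sign when any 1 of the 11 animals was left out, and their calls changed with the animal left out. Without MO male 3 there were 9 pairs that passed, the 4 among them, and without MO male 2 there were 3, of which Acox2 to Slc10a1 and Cyp8b1 to Abcb4 were 2. Leaving out MO male 1, 4 or 5 or any 1 control left 0 pairs past the threshold, with unadjusted exact permutation p-values of the 4 pairs of at most 0.032. With controls 1 and 5 only, or with controls 2, 3, 4 and 6 only, 0 of the 15 pairs passed as well.

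**Figure D4:**
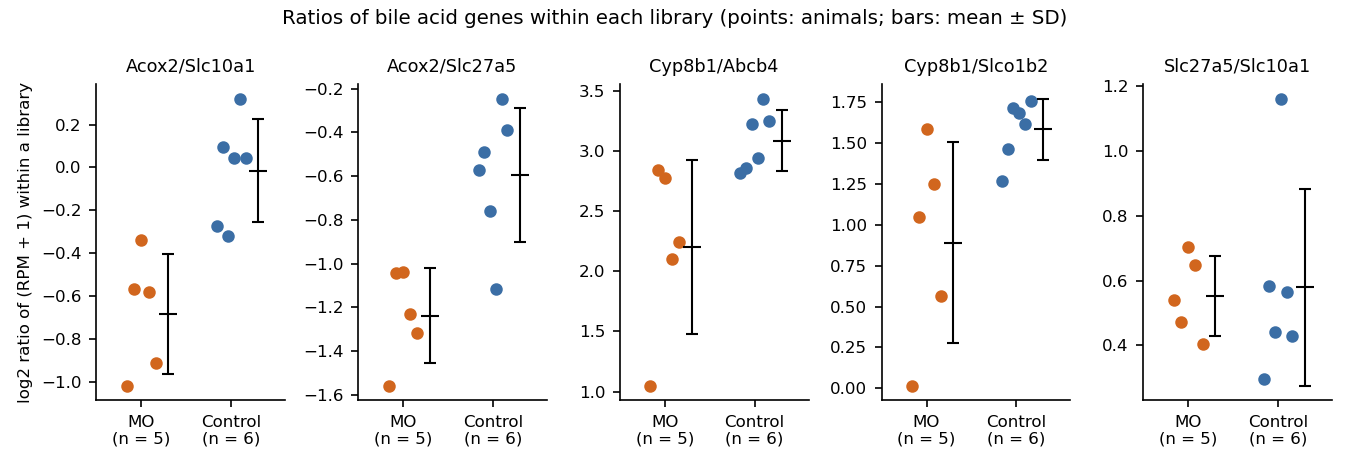
Log2 ratio of the (RPM + 1) values of 2 genes within each library (vertical axes, not starting at 0) for the 4 pairs that passed and for Slc27a5/Slc10a1, in 5 MO males (left, orange) and 6 control males (right, blue), with the mean and SD. In Acox2/Slc10a1 every MO male lies below every control, and in Slc27a5/Slc10a1 the group means are 0.55 in MO males and 0.58 in control males.

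The 6 genes also varied together between animals of the same group. After the group means had been subtracted, Pearson's r of the log2 values over the 11 males was above 0 in all 15 pairs, from 0.39 to 0.86 with a median of 0.75, where the median over all pairs of listed rows was 0.39 and 83.8% of those pairs were above 0. Spearman's rho of the 15 pairs ran from 0.33 to 0.86. The pairs of all rows, here and after centring, were not matched to the members by level, and rows of low RPM are among them. With animals permuted within groups, 11 pairs passed by r and 9 by rho after adjustment over the 15, a count with no matching share over all rows. The strongest pair was Cyp8b1 with Slco1b2 (r = 0.86, permutation p = 0.00017, adjusted p = 0.0026; rho = 0.86, permutation p = 0.00053, adjusted p = 0.0059). Without the 2 animals farthest from the median of Cyp8b1 its r was 0.92.

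The same was computed after each library was centred on its median. Then the median r of the 15 pairs was 0.54 beside 0.01 over all pairs of rows, of which 50.8% were above 0, and 1 pair passed by r and 0 by rho. That pair was again Cyp8b1 with Slco1b2 (r = 0.83, permutation p = 0.00079, adjusted p = 0.012; rho = 0.80, permutation p = 0.0063, adjusted p = 0.07; r = 0.71 without the 2 farthest animals). Cyp8b1 with the other uptake carrier, Slc10a1, was at r = 0.39 (permutation p = 0.22, adjusted p = 0.24) and rho = 0.45 (permutation p = 0.18, adjusted p = 0.19), and at r = 0.15 after centring. Without the 2 animals farthest from the median of Cyp8b1, r was 0.87 on the deposited scale and -0.19 after centring. The 2 animals were picked anew on each scale and were not the same 2. On each scale the size of r moved with the animals left out. For the 15 pairs, the 2 animals farthest from the median of the first gene were left out, in the order of genes given at the opening. The r of the pairs then ran from 0.11 to 0.93, and from -0.19 to 0.71 after centring.

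**Figure D5:**
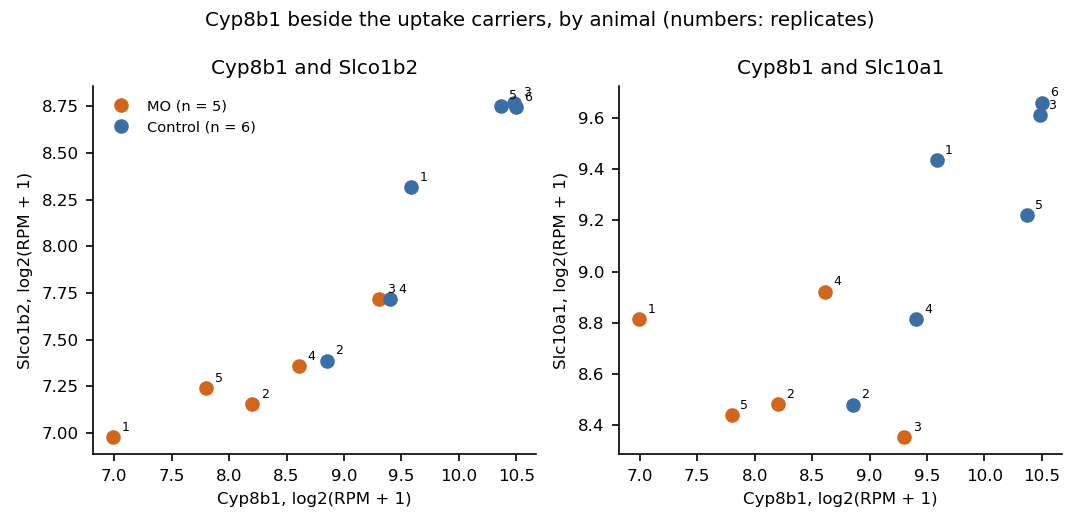
Log2(RPM + 1) of Cyp8b1 (horizontal axes) against Slco1b2 (left) and Slc10a1 (right) in 5 MO males (orange) and 6 control males (blue), numbered by replicate. With Slco1b2 the animals of both groups lie along a rising band that runs from MO male 1 to controls 3, 5 and 6. With Slc10a1 the 5 MO males show no such band.

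The controls were not alike. Control 2 had the lowest value of the 6 controls in all 7 rows, also after centring, and control 4 the second lowest in 5 of the 7. These libraries had about 8700000 and 7890000 reads, the fewest of the 11, and library medians of 4.29 on the log2 scale, the lowest of the controls, whose highest was 4.92. The part of depth in these low values was not tested. With control 2 left out the log2 fold change was -0.75 for Slc10a1, -0.77 for Slc27a5, -0.96 for Abcb4 and -1.17 for Slco1b2. Controls 2 and 4 belong to the 4 controls high in Rmrp. Against the 2 controls low in it, controls 1 and 5, all 6 members passed as lower, beside 36.1% of the rows, and log2 fold changes ran from -0.60 for Slc27a5 to -1.79 for Cyp8b1. Against controls 2, 3, 4 and 6 they ran from -0.54 for Slc10a1 to -1.63 for Cyp8b1, and again all 6 passed, beside 94.1% of the rows.

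Of 106 genes in 5 lists of bile acid genes (synthesis, uptake, export, regulators, and conjugation and clearance) 13 were in the male table, the 6 members and 7 others, and all 13 were lower, where 96.5% of the table was. After centring 12 of the 13 were below 0, where 48.2% of all rows were, and Acox2 was the 1 that passed, where 1.76% of all rows passed as lower. Genes of the lists outside the table, among them Cyp7a1 and the bile salt pump Abcb11, are not analysed here.

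In synthesis, Scp2, the peroxisomal thiolase and sterol carrier, averaged 1111 ± 134 RPM in MO males (SD, n = 5) and 1787 ± 384 RPM in control males (SD, n = 6), with 4 of 5 MO males below every control (log2 fold change -0.67 ± 0.18, SE; limma adjusted p = 0.006). In export, Abcc6, an ATP-driven efflux pump of the blood side, averaged 438.3 ± 54.1 RPM in MO males (SD, n = 5) and 708.8 ± 149 RPM in control males (SD, n = 6), with 5 of 5 MO males below every control, as in 29.9% of all listed rows. For the 4 of 5 of Scp2 no matching share over all rows was computed. After centring, Scp2 was at -0.08 and Abcc6 at -0.09, so both changes were about the size of the shift of the library medians.

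In conjugation and clearance, the glucuronosyltransferase Ugt2a3 averaged 31.6 ± 15.5 RPM in MO males (SD, n = 5) and 74.5 ± 22.9 RPM in control males (SD, n = 6), a log2 fold change of -1.27 ± 0.27 (SE), at a limma adjusted p of 0.002. Cyp3a2, a cytochrome P450 that hydroxylates steroids, averaged 1316 ± 528 RPM in MO males (SD, n = 5) and 2392 ± 758 RPM in control males (SD, n = 6). These were at -0.69 and -0.33 after centring and did not pass there (limma adjusted p = 0.31 and 1).

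Of the regulators, 3 of 34 were listed. The oxysterol receptor Nr1h3 (LXR alpha), which drives Cyp7a1 in rodents, averaged 124.6 ± 25.7 RPM in MO males (SD, n = 5) and 183.6 ± 49.5 RPM in control males (SD, n = 6). The log2 fold change of Nr1h3 was -0.54 ± 0.20 (SE), at a limma adjusted p of 0.013, and it was the gene above 0 after centring (0.04). The nuclear receptor Nr2f2 was at -0.69 ± 0.20 (SE), at a limma adjusted p of 0.0073, and Smarcd3, a chromatin remodelling subunit, at -0.67 ± 0.16 (SE), at a limma adjusted p of 0.0035, with 0.98 RPM in MO males and 2.17 RPM in control males on average. After centring Nr2f2 was at -0.11 and Smarcd3 at -0.09.

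Of 18 genes that supply or sense cholesterol, the precursor of bile acids, 4 were listed and all were lower, where 96.5% of the table was. The lysosomal cholesterol exporter Npc1 was at -0.75 ± 0.22, the HDL receptor Scarb1 at -0.66 ± 0.22 and the transcription factor Srebf2 at -0.61 ± 0.18 (log2 fold changes ± SE, limma adjusted p = 0.008, 0.011 and 0.008). After centring they lay at -0.16, -0.08 and -0.03 and did not pass.

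Cyp8b1 is known to follow the hour of the day and the feeding state. Of 21 genes of the circadian clock, 3 were listed. The activator Npas2 averaged 0.48 ± 0.40 RPM in MO males (SD, n = 5) and 7.48 ± 3.51 RPM in control males (SD, n = 6). The clock-driven kinase Wee1 averaged 10.0 ± 1.08 RPM in MO males (SD, n = 5) and 3.75 ± 2.21 RPM in control males (SD, n = 6). Wee1 was higher and Npas2 lower in MO males also after centring, at 1.93 and -1.83 (limma adjusted p = 0.00058 and 0.0033). The repressor Cry2 was at -0.48 ± 0.19 (SE), at a limma adjusted p of 0.019, and at 0.10 after centring. Their part in the differences of the bile acid genes was not tested.

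Markers of other liver cells moved in the same direction. Of the 62 such markers reported here 9 were listed, and all were lower, where 96.5% of the table was. The 3 listed cholangiocyte markers of the 9 reported here, Anxa4, Epcam and Krt19, summed to 22.9 to 39.0 RPM in MO males and 42.0 to 64.9 RPM in control males. The 4 listed stellate and fibroblast markers of 13 summed to 34.5 to 42.8 RPM in MO males and 48.8 to 67.2 RPM in control males, and the 2 endothelial ones of 11 to 52.4 to 78.7 RPM in MO males and 81.8 to 147.9 RPM in control males. The sums hold only markers listed for a difference, and no matching share over sums of other rows was computed. Singly, only Anxa4 and the stellate marker Pdgfrb had every MO male below every control, as had 29.9% of all listed rows. Of the 9 macrophage and 8 erythroid markers 0 were listed, and likewise 0 of the 12 lymphocyte and neutrophil markers reported here. After centring, 6 of the 9 listed markers were below 0, with log2 fold changes from -0.13 for Eng to 0.10 for Reln and Vwf. Of 16 hepatocyte markers only the urea cycle enzyme Cps1 was listed, at 856.9 ± 51.5 RPM in MO males (SD, n = 5) and 1265 ± 362 RPM in control males (SD, n = 6), and the others are not analysed here. Their part in the differences of the bile acid genes was not tested.

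The genes whose values followed each member most closely between animals of the same group were looked up by the highest Pearson's r over the 11 males, as a description over a search of the whole table and with no test. For Cyp8b1 these were the acid phosphatase Acpp (r = 0.92), at 0.27 RPM in MO males and 1.29 RPM in control males on average, and the kinase Sbk1 (0.89). For Slco1b2 they were again Acpp (0.97), and the sulfotransferase Sult1c2 (0.95). For Acox2 they were the glyoxylate aminotransferase Agxt (0.95) and the aromatic amino acid carrier Slc16a10 (0.93). For Slc27a5 they were LOC100158225 (0.94) and the male cytochrome P450 Cyp2a2 (0.92), for Slc10a1 Perp (0.95) and LOC691921 (0.95), and for Abcb4 the agmatinase Agmat (0.96) and Adtrp (0.94). After centring these r lay between 0.84 and 0.92. The points share the scaling of each library.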

How the data were processed

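Per the labels' protocols, an Illumina TruSeq kit was used on total RNA of F1 liver. STAR 2.3.1j, Partek and the build rn5 are named in the submitters' processing notes, without roles. The values deposited by the authors are RPM with 1 added, as inferred from the values themselves, whose minimum is 1. Once that 1 was taken off, 81.4% to 86.6% of the male values under 9 RPM lay within 0.02 of a whole number of reads. The others were fractional, so reads could not be recovered and no test on counts was run. The authors also deposited the size of each log2 difference and an unadjusted p-value, and both could be recomputed for all 1365 male rows.

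All male rows were fitted with limma 3.58.1 (trend, R 4.3.3) on log2(RPM + 1). The pseudocount of 1 understates changes of low genes, and no row was filtered out. Benjamini-Hochberg adjustment was over the 1365 rows, with a threshold of 0.05. The fit was tested on simulated data, in which as many rows were raised as lowered and no row was selected. That test does not cover a table of rows listed for a difference, most of them lower. Since rows were listed for a difference, the p-values here give no false discovery rate over expressed genes. Exact permutation tests used all 462 arrangements of the animals, and correlations 100000 permutations within groups. Promoters are RefSeq's (GRCr8). The members, lists and naming rule were chosen with earlier results of these data known, and the motifs also after the promoters had been seen. Named were the 6 members, the listed genes of the bile acid lists, the 3 largest changes among cholesterol genes, at most 4 genes of each clock or marker list, and for each member the 2 genes with the highest r. The alternatives were pseudocounts of 0.1 and 5, centring of libraries on the median of the listed rows, leaving out rows with a mean under 1 or under 10 RPM, other tests and spreads, 1 row per transcript, the replicate number as a block, each animal left out, and subsets of the controls. A few genes of the marker lists are not reported here.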

Additional observations from a re-analysis of the deposited data

How the results depend on the processing

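All 6 members passed as lower under every alternative except centring on library medians. Since the rows had been listed for a difference in these same animals, this was largely fixed in advance. With pseudocounts of 0.1 and 5 and with the equal-variance model, all 1365 rows passed in either direction. Centring left 1 member (Acox2) and 1 row of the bile acid lists. It left 72 of the 1365 rows in either direction, 24 of them as lower. The log2 fold changes were then -1.10 for Cyp8b1, -0.41 for Slco1b2, -0.22 for Abcb4, -0.043 for Slc27a5 and -0.017 for Slc10a1. The counts of passing rows given below are also of either direction. Centring subtracts the shift of -0.58 by construction. With controls 1 and 5 only, which leaves fewer samples, 531 rows passed, and Slc27a5 was just within the threshold (limma adjusted p = 0.049). With 1 animal left out, the log2 fold changes ran from -1.96 to -1.39 for Cyp8b1, -1.39 to -1.17 for Acox2, -1.17 to -0.89 for Slco1b2, -0.96 to -0.65 for Abcb4, -0.77 to -0.55 for Slc27a5 and -0.75 to -0.51 for Slc10a1, and 1282 to 1364 rows passed.

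The 4 member ratios that passed became 0 to 9 with 1 animal left out, where the smallest exact p is 0.0048 or 0.0079 in place of 0.0022. They became 0 with controls 1 and 5 only (smallest exact p 0.048) and 0 with controls 2, 3, 4 and 6 only, subsets chosen for the ratios after seeing the data. With the replicate number as a block 0 ratios, 6 members and 1344 rows passed, and Slc10a1 was at -0.51. The numbers were not taken as pairs, since no label ties animals of the same number together and the correlations of their deviations ran from -0.10 to 0.15. A table of selected rows does not allow a count over all expressed genes.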
